A study of Mus musculus with 8 samples.

Results

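The Z-disc genes described here are 10 genes that encode structural and signalling proteins of the Z-disc: Actn2, Actn3, Myoz1, Myoz2, Ldb3, Myot, Tcap, Csrp3, Xirp1 and Xirp2. They were taken by symbol from the probe annotation of the array, and each of the 10 was represented by 1 probe set, out of 19938 genes with a symbol of their own. The samples were cultured mouse primary myoblasts, which are satellite cells of muscle dividing in culture, and their RNA was hybridised to 8 single-colour Affymetrix MoGene 1.0 ST arrays. Of these, 4 arrays were labelled Runx1f/f and 4 were labelled WT, each numbered 1 to 4 as biological replicates. Both labels stand for cells of the C57bl/6 background from the gastrocnemius muscle of animals aged 2 to 3 weeks, grown on Matrigel in the same proliferation medium. The labels name the Runx1f/f allele and describe the comparison as one with KO cells. The sources used here give neither the Cre that would delete the allele nor whether cells of several animals were pooled. Values are log2 intensities, so a difference of 1 is a doubling of the signal, and no level of 1 probe set is compared with that of another.

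The Z-disc is the plate at each end of a sarcomere, the contractile unit of striated muscle, where actin filaments of neighbouring sarcomeres overlap and are cross-linked by alpha-actinin. Titin is anchored in it by telethonin, and PDZ, LIM and actin-binding proteins tie it to signalling and to the membrane. Myoblasts in proliferation medium have few sarcomeres, and Z-disc genes are among those switched on when myoblasts leave the cell cycle and fuse into myotubes.

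The deposited columns have a structure that limits every comparison below. In all 35399 rows of the table, 3 means agreed within 7.5e-05: that over the 4 WT columns, that over Runx1f/f 1 and 2, and that over Runx1f/f 3 and 4. Runx1f/f 1 and 2 are therefore mirror images about 1 mean in every gene, as are Runx1f/f 3 and 4, and the 8 columns hold 5 independent components where 8 separate arrays would hold 7. Array medians lay between 4.39 and 4.41. Beyond that, replicates 2 and 3 of both labels stood apart from replicates 1 and 4 of both labels. Runx1 itself, the targeted gene, followed that division, while the equal means leave no gene a difference between the label means. Runx1 read 9.98 and 9.89 in Runx1f/f 2 and 3 and 9.99 and 10.27 in WT 2 and 3. In Runx1f/f 1 and 4 it read 9.35 and 9.44, and in WT 1 and 4 it read 9.15 and 9.25. What sets the replicates apart is not given in the labels. The labels also carry source numbers, 140, 141, 161 and 181 for Runx1f/f 1 to 4 and 139, 142, 160 and 189 for WT 1 to 4. If the value columns stood in rising order of these numbers, all 4 columns of replicates 2 and 3 would be Runx1f/f cells and all 4 of replicates 1 and 4 would be WT cells. The equal-mean sets would then be the numbers 139 to 142, 160 with 161, and 181 with 189. In that order the higher of the Runx1 values above would belong to the Runx1f/f cells. Whether the labels stand on the right columns was not tested, so the values below keep the deposited labels and are not read as a genotype difference. The division was first seen in these same values, so it is described with values, spreads and counts and carries no test.

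For the Z-disc genes the result was a division within the list. On the arrays of replicates 2 and 3, 6 of the 10 genes were over 1.5-fold higher than on those of replicates 1 and 4, namely Actn2, Myoz1, Myoz2, Ldb3, Myot and Csrp3, and 0 were over 1.5-fold lower. Over all 19938 genes, 2.32% were over 1.5-fold higher and 0.838% over 1.5-fold lower. In the same 6 genes the lowest of the 4 arrays of replicates 2 and 3 lay above the highest of the 4 arrays of replicates 1 and 4, where 9.87% of all genes had no overlap in this direction. Actn3 alone lay without overlap on the other side, as did 10.5% of all genes. Tcap, Xirp1 and Xirp2 overlapped. The median difference of the 10 genes was 0.78 on the log2 scale, against -0.01 over all genes, and single members ran from -0.49 in Actn3 to 1.47 in Myot. As RNA was measured from whole cultures, fewer cells of a type and less RNA per cell cannot be told apart.

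**Figure D1:**
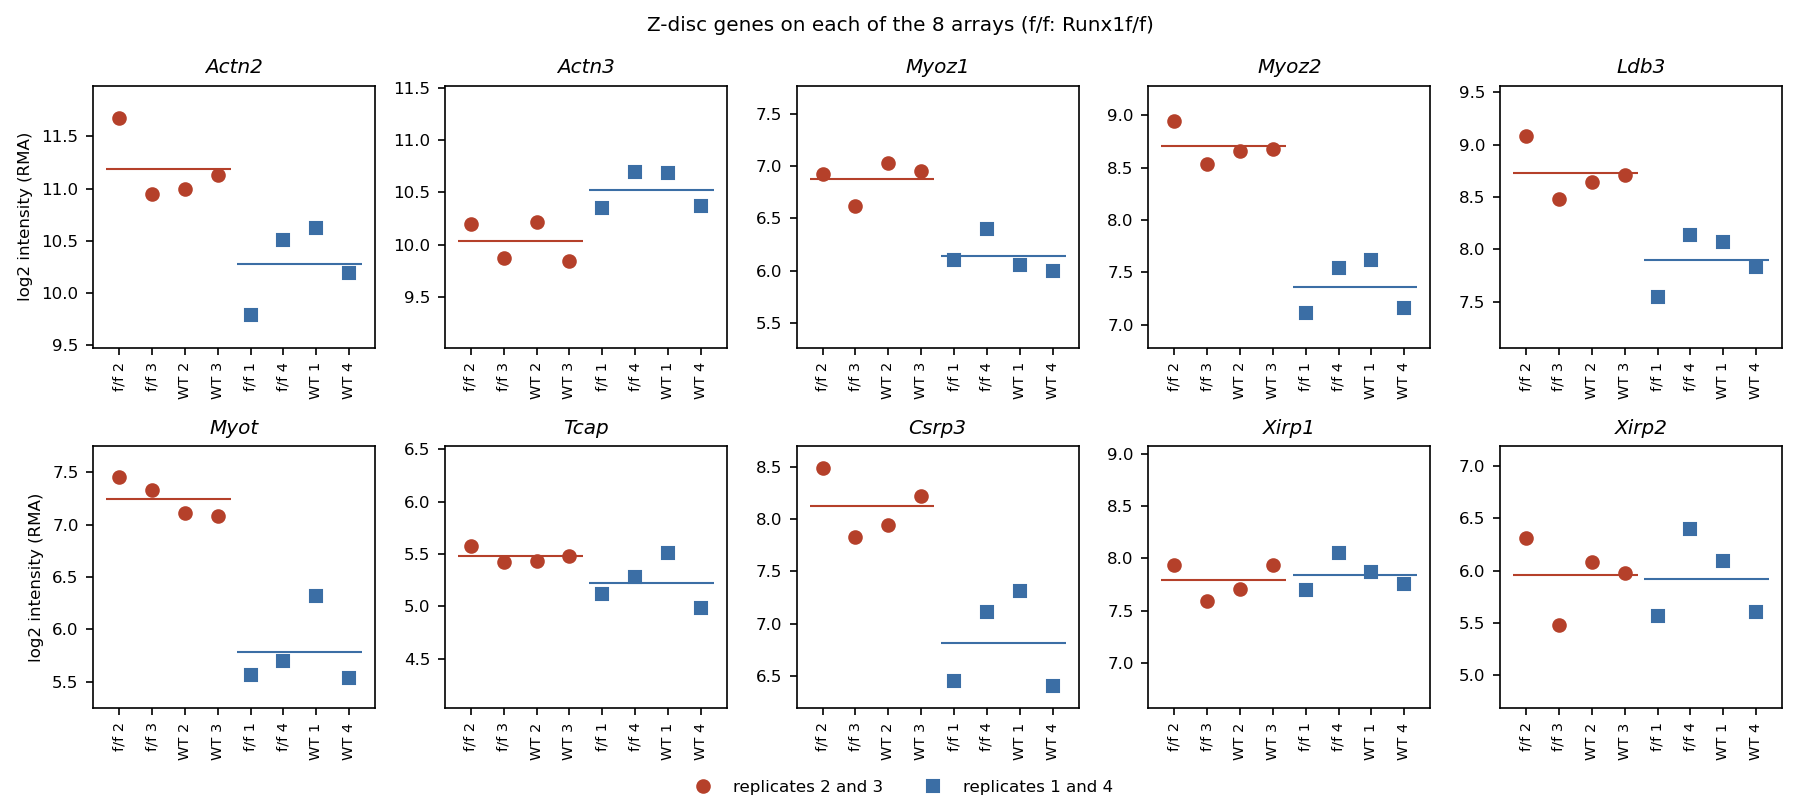
Log2 intensity (vertical axis, each panel spanning the same number of log2 units) of the 10 Z-disc genes on each array, with replicates 2 and 3 as red circles, replicates 1 and 4 as blue squares and the mean of each set as a line. In 6 panels every red circle lies above every blue square, in Actn3 every one lies below, and in Tcap, Xirp1 and Xirp2 the sets overlap.

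Promoter sequences are shown for Myoz2, Csrp3 and Actn2, which were higher together on the arrays of replicates 2 and 3, and for Xirp2, which was not. They are the 250 bases before the annotated start, in RefSeq's GRCm38.p6 build, on the strand of the gene. RefSeq windows were read for 5 of the 10 genes, these 4 and Ldb3. The windows of a chromosome were left out beforehand, so 5 need not count every gene with a window. Myot was among the genes not read. Capitals mark E-boxes (CANNTG, the letters bound by MyoD and myogenin, among other factors), the MEF2 box, and the RUNX letters TGTGGT or TGCGGT, each sought on both strands.
Myoz2, chr3:123034988-123035237, minus strand: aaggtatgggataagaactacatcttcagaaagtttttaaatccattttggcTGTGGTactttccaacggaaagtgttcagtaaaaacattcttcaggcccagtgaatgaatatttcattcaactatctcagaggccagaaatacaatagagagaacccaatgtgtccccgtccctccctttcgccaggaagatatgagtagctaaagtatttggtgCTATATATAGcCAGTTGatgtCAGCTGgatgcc
Csrp3, chr7:48848052-48848301, minus strand: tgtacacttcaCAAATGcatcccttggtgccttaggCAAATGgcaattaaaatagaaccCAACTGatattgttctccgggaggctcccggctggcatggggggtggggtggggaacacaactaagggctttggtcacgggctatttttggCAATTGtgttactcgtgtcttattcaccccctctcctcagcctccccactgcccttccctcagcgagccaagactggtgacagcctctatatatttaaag
Actn2, chr13:12340733-12340982, minus strand: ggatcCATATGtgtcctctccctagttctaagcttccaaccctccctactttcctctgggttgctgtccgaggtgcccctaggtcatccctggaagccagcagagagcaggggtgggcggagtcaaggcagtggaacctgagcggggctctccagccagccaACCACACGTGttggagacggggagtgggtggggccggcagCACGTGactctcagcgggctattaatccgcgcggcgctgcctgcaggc
Xirp2, chr2:67445752-67446001, plus strand: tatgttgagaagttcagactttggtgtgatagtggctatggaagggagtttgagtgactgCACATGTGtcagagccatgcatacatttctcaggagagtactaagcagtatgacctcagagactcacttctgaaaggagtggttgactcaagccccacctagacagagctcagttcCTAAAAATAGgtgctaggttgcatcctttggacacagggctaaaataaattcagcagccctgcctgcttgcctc

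In Myoz2 a MEF2 box from -33 to -24 is followed by E-boxes from -22 to -17 and from -12 to -7, counted back from the start, and TGTGGT stands from -198 to -193. The Csrp3 window holds 4 E-boxes and neither of the other motifs. A further RefSeq start of Csrp3 has a window of its own, also with 4 E-boxes. The Actn2 window holds 3 E-boxes, and the one from -84 to -79 overlaps the RUNX letters, read on the opposite strand, from -88 to -83. In Xirp2 there are 2 overlapping E-boxes and a MEF2 box from -74 to -65. Neither of the 2 overlapping Ldb3 windows holds an E-box or a MEF2 box, and 1 of them holds the RUNX letters. Across 32851 RefSeq windows of the same length, 66.2% hold an E-box, 18.6% the RUNX letters and 2.92% a MEF2 box. These are matches of letters. E-boxes and a MEF2 box occur in windows of genes that differed between the arrays and in that of Xirp2, which did not differ. The Xirp2 window does not hold the RUNX letters, and neither do the Csrp3 windows.

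Alpha-actinins form the cross-links of the Z-disc, and the muscle genes of this family differed in direction. Actn2, which is made in all striated fibres and in the heart, read 11.67 and 10.95 in Runx1f/f 2 and 3 and 11.00 and 11.13 in WT 2 and 3. In replicates 1 and 4 it read 9.79 and 10.51 under the Runx1f/f label and 10.62 and 10.19 under the WT label. The 2 sets did not overlap, with means of 11.19 ± 0.33 and 10.28 ± 0.37 (SD, n = 4 each), a difference of 0.91 or 1.88-fold. Runx1f/f 2 was the highest and Runx1f/f 1 the lowest of all 8 arrays.

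Actn3, the alpha-actinin of fast fibres, ran the other way. It read 10.20 and 9.87 in Runx1f/f 2 and 3 and 10.22 and 9.84 in WT 2 and 3, against 10.35 and 10.69 in Runx1f/f 1 and 4 and 10.68 and 10.37 in WT 1 and 4. The means were 10.03 ± 0.21 and 10.52 ± 0.19 (SD, n = 4 each), so it was 1.40-fold lower in replicates 2 and 3, short of the 1.5-fold line. Of the non-muscle relatives, Actn1 was also lower, at 8.53 ± 0.18 against 9.02 ± 0.18, and without overlap. Over all genes 10.5% were lower without overlap, so this trait alone does not set Actn3 or Actn1 apart. Actn4 read 10.75 ± 0.11 in replicates 2 and 3 and 10.74 ± 0.06 in replicates 1 and 4, a difference of 0.02 that lies inside the spread of either set.

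The myozenins, also called calsarcins, bind alpha-actinin, filamin C and the phosphatase calcineurin. Myoz2, the form of slow fibres and heart, read 8.95 and 8.53 in Runx1f/f 2 and 3 and 8.66 and 8.68 in WT 2 and 3, against 7.11 and 7.54 in Runx1f/f 1 and 4 and 7.62 and 7.16 in WT 1 and 4. The gap of 0.90 between the sets was wider than the range within either set for this gene. Its means of 8.71 ± 0.18 and 7.36 ± 0.26 (SD, n = 4 each) differ by 1.35, or 2.55-fold. Myoz1, the form of fast fibres, had the smallest difference of the 6 genes over the 1.5-fold line, at 0.74 or 1.67-fold. It read 6.92 and 6.62 in Runx1f/f 2 and 3 and 7.03 and 6.95 in WT 2 and 3, against 6.10 and 6.40 in Runx1f/f 1 and 4 and 6.05 and 6.00 in WT 1 and 4. The highest of the WT arrays and the lowest were thus also the highest and lowest of all 8, unlike in Actn2, Myoz2 and Ldb3, where both ends were Runx1f/f arrays. Myoz3, the third myozenin, read between 3.53 and 3.69 on all arrays, and its sets overlapped.

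Myotilin, encoded by Myot, binds alpha-actinin, filamin C and actin, and had the largest difference of the 10 genes. Its arrays read 7.46 and 7.33 in Runx1f/f 2 and 3 and 7.11 and 7.08 in WT 2 and 3, against 5.56 and 5.70 in Runx1f/f 1 and 4 and 6.32 and 5.54 in WT 1 and 4. WT 1 was the highest of the lower set and still 0.76 below the lowest of the upper set. With means of 7.25 ± 0.18 and 5.78 ± 0.37 (SD, n = 4 each), the difference was 1.47, or 2.77-fold.

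Ldb3, also known as Cypher or ZASP, is a PDZ and LIM domain protein that holds on to alpha-actinin and keeps the Z-disc stable under load. It read 9.08 and 8.48 in Runx1f/f 2 and 3 and 8.64 and 8.71 in WT 2 and 3, against 7.54 and 8.14 in Runx1f/f 1 and 4 and 8.07 and 7.83 in WT 1 and 4. The means were 8.73 ± 0.26 and 7.90 ± 0.27 (SD, n = 4 each), a difference of 0.83 or 1.78-fold. No pair of members was closer in pattern than Ldb3 and Actn2, a pair that also binds as proteins: after centring each gene on its own mean, their root mean square distance over the 8 arrays was 0.104 on the log2 scale. None of the 4 Pdlim genes read, which encode related PDZ and LIM proteins, was higher by over 1.5-fold. Pdlim5 was lower without overlap, at 8.74 ± 0.15 against 9.06 ± 0.15, Pdlim7 differed by -0.39 with overlap, and Pdlim3 and Pdlim1 differed by -0.03 and -0.11.

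At the anchor of titin the values for Csrp3 and Tcap, whose proteins bind each other, were unlike. Csrp3, the muscle LIM protein, read 8.49 and 7.83 in Runx1f/f 2 and 3 and 7.94 and 8.22 in WT 2 and 3, against 6.45 and 7.11 in Runx1f/f 1 and 4 and 7.31 and 6.40 in WT 1 and 4. It ranged over 2.09 log2 units on the 8 arrays, the widest range of the 10 genes, and its means of 8.12 ± 0.29 and 6.82 ± 0.46 (SD, n = 4 each) differ by 1.30, or 2.47-fold. The related Csrp1 and Csrp2, found in smooth muscle and other cells, differed by -0.13 and -0.10 with overlapping arrays.

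Tcap, or telethonin, caps the Z-disc end of titin and marks late steps of sarcomere assembly. It read 5.58 and 5.42 in Runx1f/f 2 and 3 and 5.43 and 5.48 in WT 2 and 3, against 5.12 and 5.28 in Runx1f/f 1 and 4 and 5.51 and 4.98 in WT 1 and 4. The sets overlapped through WT 1, and the difference of 0.26, or 1.20-fold, was close to the SD of 0.23 among the arrays of replicates 1 and 4.

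Xirp1 and Xirp2 encode Xin-repeat proteins, which bind actin filaments and gather at sites of remodelling in skeletal muscle. In neither did the difference between the sets exceed the spread within them. Xirp1 read 7.94 and 7.59 in Runx1f/f 2 and 3 and 7.71 and 7.94 in WT 2 and 3, against 7.70 and 8.05 in Runx1f/f 1 and 4 and 7.87 and 7.75 in WT 1 and 4, a difference of -0.05 within SDs of 0.17 and 0.15. For Xirp2 the values were 6.31 and 5.48 in Runx1f/f 2 and 3 and 6.08 and 5.98 in WT 2 and 3, against 5.57 and 6.40 in Runx1f/f 1 and 4 and 6.09 and 5.61 in WT 1 and 4. Its difference was 0.04 within SDs of 0.35 and 0.40, so the spread of Xirp2 was wide but crossed the sets. The highest and lowest arrays of both genes were Runx1f/f 4 and Runx1f/f 3.

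Because the columns have equal means within 3 sets, each gene gives 3 separate differences between these replicates, shown in the plot of differences by column set. In Runx1f/f 2 minus Runx1f/f 1, 9 of the 10 genes were higher, by 0.24 in Xirp1 to 2.04 in Csrp3, and Actn3 differed by -0.15. In Runx1f/f 3 minus Runx1f/f 4, 7 genes were higher, by 0.15 in Tcap to 1.63 in Myot, while Xirp1, Actn3 and Xirp2 differed by -0.46, -0.82 and -0.92. In the means of WT 2 and 3 minus WT 1 and 4, again only Actn3 was below 0, at -0.49, and the others ran from 0.02 in Xirp1 to 1.28 in Myoz2. In both Runx1f/f differences 7 of 10 genes were higher, as were 25% of all genes. Thus 7 of 10 genes were higher in each of the 3 differences, as were 16.8% of all genes. With its sign, the difference in Runx1f/f 3 minus 4 was below that in Runx1f/f 2 minus 1 in all 10, which held for 48.3% of all genes. In absolute size it was smaller in 7 genes and larger in 3, Actn3, Xirp1 and Xirp2. Myot kept most of its size from pair to pair, with 1.90 and 1.63, whereas Actn2 had 1.88 and 0.44, Csrp3 2.04 and 0.73, and Ldb3 1.54 and 0.34.

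**Figure D2:**
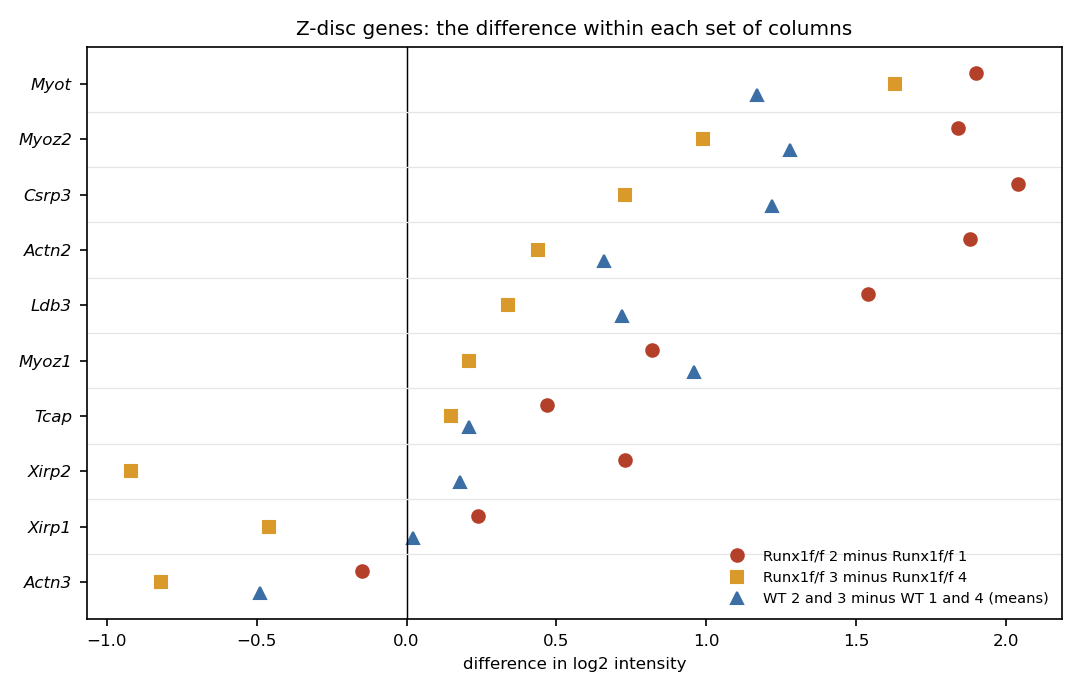
Difference in log2 intensity (horizontal axis) for each Z-disc gene, in Runx1f/f 2 minus Runx1f/f 1 (circles), Runx1f/f 3 minus Runx1f/f 4 (squares) and the means of WT 2 and 3 minus WT 1 and 4 (triangles). Each square lies left of the circle of the same gene, and for Xirp1 and Xirp2 the circle and the square lie on opposite sides of 0.

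The series itself compared Runx1f/f with WT myoblasts, to find the genes that depend on Runx1 early in muscle regeneration. Of the 10 Z-disc genes, 0 passed in either direction in Runx1f/f against WT, and of all 19938 genes 0% passed (limma, two-sided, Benjamini-Hochberg adjusted p under 0.05), with 0 genes at an unadjusted p under 0.05. The equal means of the column sets fix this count, which measures no effect of Runx1. The spread within a label varied by gene. The SD over the 4 arrays was 0.79 in Runx1f/f and 0.42 in WT for Actn2, 0.48 and 0.23 for Xirp2, but 0.34 and 0.56 for Myoz1. Over all genes, each WT array was the highest in 13.9% to 20% and each Runx1f/f array in 6.8% to 10.6%. The Runx1f/f columns are mirrored pairs and the WT columns are not, so these SDs are not alike in kind. They were not tested against each other and are not read as a difference between the labels. The equal means fix the p-values as well, so they measure no spread between samples. Nothing says that the replicates came from separate animals.

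Among all genes, the differences of the 6 higher Z-disc genes lay in the thin upper part of the distribution, which is shown in the histogram of all differences. The median absolute difference over all genes was 0.065. At the upper end, 48 genes differed by more than 2 on the log2 scale, beyond every Z-disc gene.

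**Figure D3:**
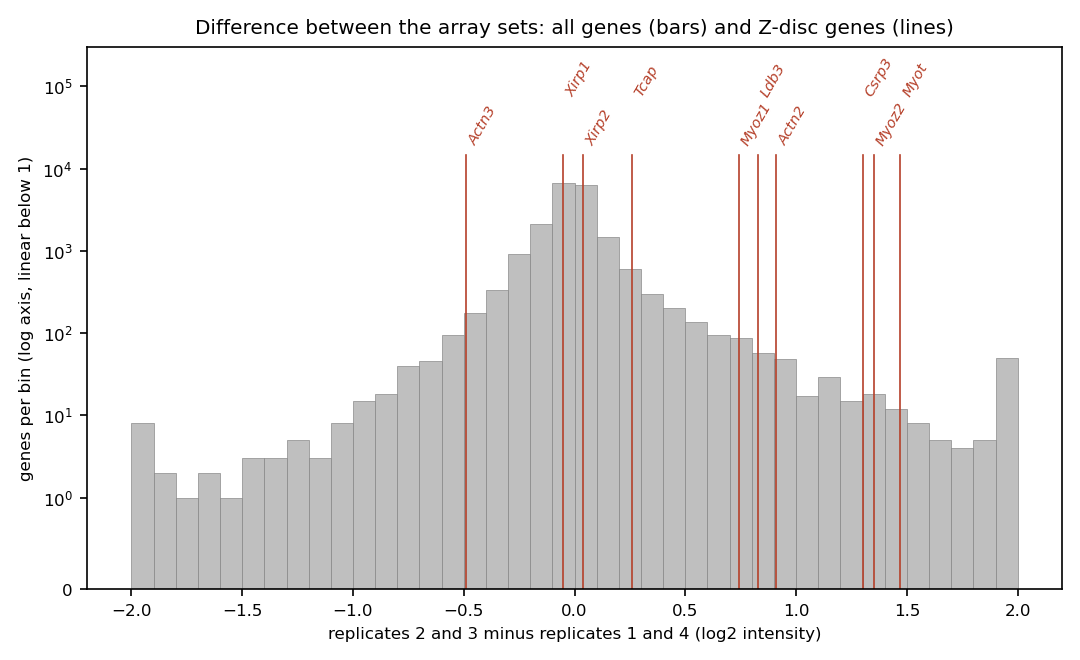
Number of genes (vertical axis, logarithmic above 1) by the mean of replicates 2 and 3 minus the mean of replicates 1 and 4 in log2 intensity, with differences beyond 2 in either direction counted in the outermost bars. Red lines mark the 10 Z-disc genes, of which 6 lie between 0.74 and 1.47 and Actn3 lies at -0.49.

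Other genes of the Z-disc and of proteins bound to it were mixed. Of 36 listed, 35 were measured, 0 passed between the labels, and 3 were over 1.5-fold higher in replicates 2 and 3 with 0 over 1.5-fold lower. Over all genes, 2.32% were over 1.5-fold higher and 0.838% over 1.5-fold lower. The median difference of the 35 was 0.02. The highest were Fhl1, a LIM protein of striated muscle, at 0.64, Trim54, a ubiquitin ligase of the sarcomere also called MuRF3, at 0.62, Smpx, a small protein of the costamere region, at 0.61, the titin and nebulin binding Mypn at 0.41, and Ttn, which encodes titin, at 0.40. Only Fhl1 and Trim54 of these did not overlap. At the other end lay Ankrd1 at -0.57, a stretch-responsive ankyrin repeat protein that binds titin, followed by Actn1 at -0.48, the LIM protein gene Fhl2 at -0.43, Pdlim7 at -0.39 and Ankrd2 at -0.34. Without overlap, 7 of 35 were higher and 6 of 35 lower, beside 9.87% higher and 10.5% lower over all genes. Among the 7 was Des, which encodes the intermediate filament desmin, at 11.40 ± 0.06 against 11.22 ± 0.08. The nebulin relative Nebl and the actin-bundling Palld differed by -0.23 and 0.08, and their sets overlapped.

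**Figure D4:**
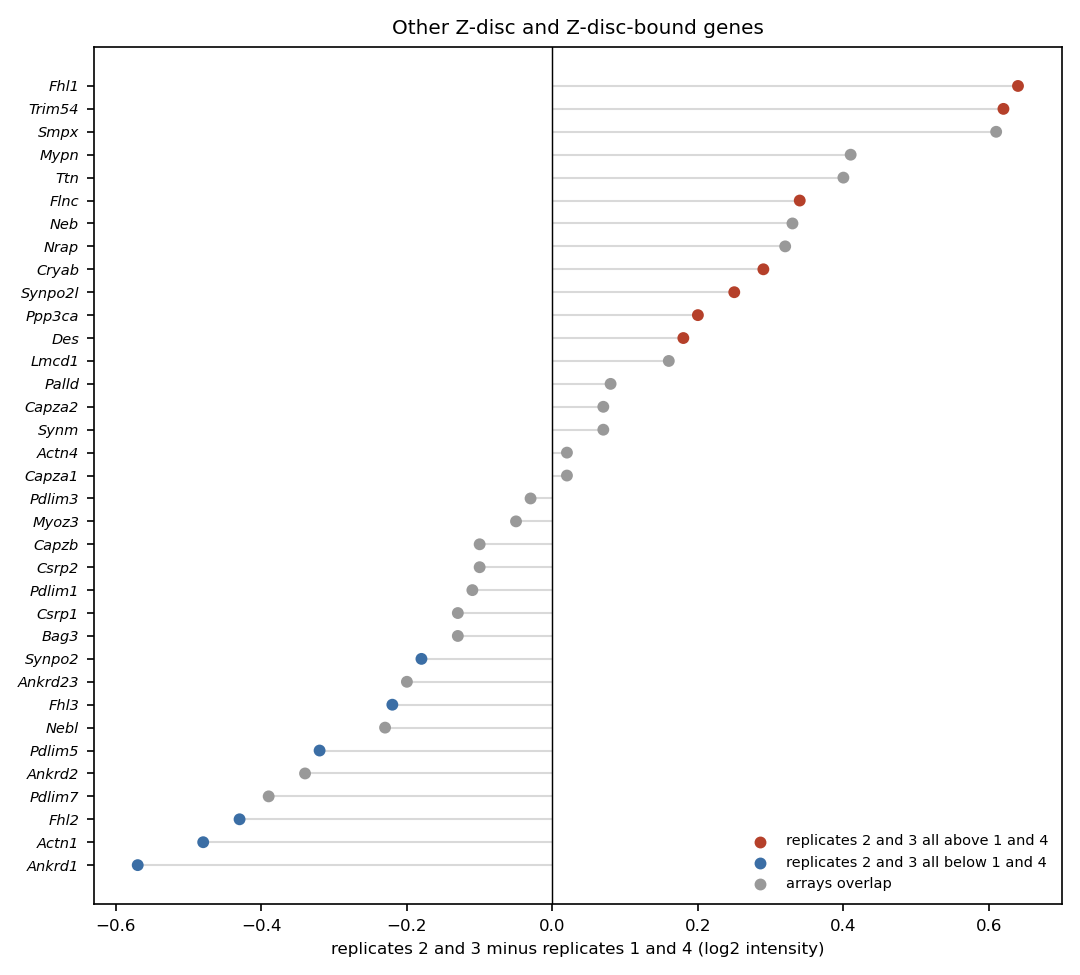
Mean of replicates 2 and 3 minus mean of replicates 1 and 4 in log2 intensity (horizontal axis) for the 35 other Z-disc and Z-disc-bound genes. Red points mark the 7 genes whose arrays of replicates 2 and 3 all lie above the others, blue points the 6 whose arrays all lie below, and grey points those that overlap.

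Outside these lists, the genes closest to the mean centred profile of the 10 Z-disc genes were sought by root mean square distance over the 8 arrays, leaving out predicted genes and clones. The closest were Abcc9, a subunit of ATP-sensitive potassium channels, at a distance of 0.039, Mylpf, the fast skeletal regulatory myosin light chain, at 0.041, Dclk1, a microtubule-associated kinase, at 0.049, Myh2, a fast myosin heavy chain, at 0.058, and Lmod3, which promotes actin filament assembly in sarcomeres, at 0.061. Each was higher in replicates 2 and 3 without overlap, by 0.56 in Lmod3 to 0.73 in Dclk1, and in each Runx1f/f 2 was the highest array. The mean profile has these same traits, so they largely follow from choosing genes close to it. Of the members themselves, Ldb3 lay closest to that profile, at 0.126, and Actn3 farthest, at 0.574.

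Markers of muscle differentiation were higher on the same arrays as the 6 Z-disc genes. In a list of 6 differentiation markers (Myog, Mymk, Myh3, Ckm, Tnnt3 and Acta1), all 6 had a positive difference, 2 were over 1.5-fold higher and 5 did not overlap. Over all genes, 9414 of 19938 had a positive difference, 2.32% were over 1.5-fold higher and 9.87% were higher without overlap. The mean level of the differentiation list lay between 11.31 and 11.72 on the arrays of replicates 2 and 3 and between 10.78 and 11.19 on those of replicates 1 and 4. Myog, the factor that drives terminal differentiation, differed by 0.76, and Ckm, muscle creatine kinase, by 0.99. Of 7 myoblast and satellite cell markers, which include Myod1 at 11.12 to 11.57, 0 were over 1.5-fold higher and 1 was over 1.5-fold lower, Myf5 at -0.89. Without overlap, 2 of the 7 were higher, Cdh15 and Des, and 2 were lower, Myf5 and Myod1. The list means ran from 9.47 to 9.57 against 9.52 to 9.67. The part of these markers in the result was not tested.

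Several Z-disc genes are also made in heart and other contractile cells, whose markers were therefore read. Among 6 heart markers, Myh6, Nppa, Tnni3, Myl7 and Ryr2 stayed between 3.32 and 4.29 on all arrays, and Tnnt2, which immature skeletal muscle also makes, differed by 1.03. Over the whole heart list the means ran from 5.05 to 5.10 in replicates 2 and 3 and from 4.84 to 4.96 in replicates 1 and 4. Of 7 smooth muscle and pericyte markers, Cspg4 and Pdgfrb were over 1.5-fold higher, at 0.72 and 0.59, as were 2.32% of all genes. Rgs5, Tagln and Acta2 differed by -0.49, -0.45 and -0.03. Pdgfrb read 3.39 to 4.34, below every array median, and Cspg4 read 4.03 to 5.29. Acta2 read 11.49 to 11.91, Rgs5 7.89 to 8.96 and Tagln 5.60 to 7.10. Myh11 and Cnn1 read 3.39 to 3.64, and only 2 of the 7 had a positive difference. The means of that list were 5.84 to 6.21 against 5.79 to 6.13. Of the other lists, 8 of 9 fibroblast markers were measured, with means of 5.09 to 5.25 against 5.10 to 5.27. These means join unlike levels. Over the 8 arrays Col1a2 read 9.13 to 10.39 and Col3a1 8.60 to 9.21, with overlapping sets. Pdgfra, Dcn, Lum and Tcf21 read 3.22 to 3.63, and Col1a1 and Thy1 read 3.85 to 4.82. The 5 endothelial markers gave 3.49 to 3.51 against 3.54 to 3.56. The 6 leukocyte markers gave 3.69 to 3.75 on both sets, and 0 markers in these 3 lists passed 1.5-fold. Log2 intensities of such probe sets have no true 0, and detection values were not analysed here. The part of the heart, smooth muscle, pericyte and fibroblast markers in the result was not tested.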

How the data were processed

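The single deposited table holds log2 intensities, for which the submitters' processing notes name RMA and Partek with no version. RMA corrects background, quantile-normalizes the arrays and summarizes probes. No further adjustment is recorded. Of 35399 rows, 21789 had 1 symbol in the platform annotation. A gene was represented by its row with the highest mean, giving 19938 genes, and no filter on dim genes was applied. The labels were compared in R 4.3.3 by lmFit and eBayes of limma 3.58.1, with no covariate, after a test on simulated data. That fit takes the 8 columns as independent, which they are not.

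Replicates 2 and 3 were set against replicates 1 and 4 without a test. The members, lists and this division were chosen with earlier results of these data known. Genes named are the members, Runx1, the 5 highest and 5 lowest of the other Z-disc genes, their relatives, the 5 closest genes and markers. Des, Pdlim1, Pdlim3, Pdlim5 and the single markers given were picked after their values were seen. To check pairing by number, deviations from label means were correlated, giving 0.39, 0.46, 0.60 and 0.57. The labels give no pairing, and the mirrored columns weaken this check. Replicates 2 and 3 stood apart from 1 and 4 in both labels, and unlike numbers are not given for comparison. The check therefore cannot decide on pairing. Alternatives changed the scaling, the row of a gene, blocks, the dim filter, the variance model, the fold threshold and each array left out. The number of arrays limits the precision.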

Additional observations from a re-analysis of the deposited data

Results flagged for a closer look

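Each label's 4 arrays were checked, for each of the 10 Z-disc genes, for an array far from the rest of its label. Only the 10 groups of WT arrays can be marked, because the mirrored Runx1f/f columns are symmetric, and chance marks about 1 in 20 groups. The check marked 1 group. Tcap read 4.98 in WT 4, against 5.51, 5.43 and 5.48 in WT 1 to 3, which made WT 4 the lowest of all 8 arrays for this gene. WT 4 was also the lowest of the 8 arrays for Myoz1, Myot and Csrp3.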

How the results depend on the processing

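The count of Z-disc genes over 1.5-fold higher in replicates 2 and 3 was 6 after median centring and after a repeated quantile normalization. It was also 6 at the lower fold threshold tried and with each array left out. At a 2-fold threshold, which is stricter by construction, it was 3 (Myot, Myoz2 and Csrp3). Averaging all rows of a gene, also among the settings below, cannot change values of the 10 genes, as each has 1 row. The median difference of all 10 genes ran from 0.72 to 0.87 with 1 array left out. The count without overlap was 6 or 7 over the same fits, and 7 because Tcap no longer overlapped without WT 1. By gene, leaving out 1 array gave 1.39 to 1.65 for Myot, 1.16 to 1.47 for Csrp3, 0.75 to 1.02 for Actn2 and -0.55 to -0.42 for Actn3. The small differences of Xirp1 and Xirp2 turned sign in 2 and 3 of 11 settings, and those of the other 8 genes kept their sign in all 11. Between the labels, the counts of genes and of Z-disc genes passing stayed at 0 with the replicate number as a replicate block, with the runs of source numbers as a block, with genes above a mean of 5 alone, with the other variance model and with each array left out. At an unadjusted p under 0.05, the fits without 1 array called 0 to 27 genes. The equal means fix the counts in the fits that keep all columns and their scaling, and a left-out array compares its own deviation and not the labels, so these counts say nothing about stability. Detection values were not analysed, so no limit from signal over background can be given.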

Other observations

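The opposite signs that Xirp1 and Xirp2 showed in the Runx1f/f arrays also occurred in other Z-disc genes. Runx1f/f 2 was above Runx1f/f 1 while Runx1f/f 3 was below Runx1f/f 4 in 11 of 35 of them (31.4%), in 2 of the 10 members (20.0%) and in 20.5% of all genes, a description with no test. The count takes the sign alone, so it includes differences near 0. In Neb the 2 differences were 0.36 and -0.01, and in Mypn 0.74 and -0.03. The widest of the 11 was Ankrd2, a stretch-responsive ankyrin repeat protein of slow fibres. It read 6.92 and 5.91 in Runx1f/f 2 and 3, against 6.66 and 7.67 in Runx1f/f 1 and 4, while the WT arrays stayed between 6.71 and 6.86. Titin itself, in Ttn, read 11.46 and 11.02 in Runx1f/f 2 and 3 and 11.30 and 11.36 in WT 2 and 3, against 10.71 and 11.14 in Runx1f/f 1 and 4 and 10.94 and 10.73 in WT 1 and 4. Nrap, which links nascent myofibrils to the membrane, differed by 0.88 in Runx1f/f 2 minus 1 and by -0.29 in Runx1f/f 3 minus 4. These genes were picked after their values were seen.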
